A study of Homo sapiens with 17 samples.

Results

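The genes described here encode the proteins of the mitochondrial ribosome. They were chosen by name, as protein-coding genes of GENCODE release 29 on chromosomes 1 to 22 whose symbol starts with MRPL or MRPS and a number (the rule reads names and no measured value). This gave 78 of 19019 protein-coding genes, 49 MRPL genes and 29 MRPS genes. Data are from HEK293 cells, a line from human embryonic kidney, in which precision run-on sequencing was carried out for 0.5, 2, 8 or 32 min. In this assay polymerases that are engaged on DNA in permeabilised cells extend their RNA with labelled nucleotides, and the 3′ end of the RNA marks where the polymerase stood. The run-on buffer either held the detergent sarkosyl or did not, and each of the 8 combinations had 2 replicates, so that 16 libraries were used, and the labels name no treatment or genetic change in them. Sarkosyl strips many proteins from chromatin and leaves engaged polymerases able to elongate. These libraries were condensed by the authors into 4 tables, 2 for each buffer. A row stands for a position on a strand, called a site, and carries an estimate of how long polymerase pauses there, made from the libraries of the different run-on times. The design text calls the replicates biological, whether the run-on times of a replicate came from the same culture is not said, and p-values measure the spread between these tables.

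The mitochondrial ribosome makes the few proteins that mitochondrial DNA encodes, all of them parts of the respiratory chain or of ATP synthase. All of its proteins are encoded in the nucleus, transcribed there by RNA polymerase II, translated in the cytosol and imported. In the gene symbols L stands for the large subunit, which forms peptide bonds, and S for the small subunit, which binds and decodes the messenger RNA. MRPS30 and MRPS18A carry an S in their symbol although structures place their products in the large subunit. RNA polymerase II commonly halts shortly after it starts, and promoters of the ribosomal and respiratory genes of mitochondria are known for sites of ETS factors, NRF1 and YY1.

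A pausing time is printed as deposited. Its unit is not stated, and the number of reads behind a site is unknown. Over whole tables the median pausing time was 1.49 and 1.34 in sarkosyl replicates 1 and 2, and 2.23 and 8.00 in sarkosyl-free replicates 1 and 2. The sarkosyl-free replicates thus stood far apart from each other in level, and every value from sarkosyl-free replicate 2 below shares that. Of the marker genes for this line, ENO1 and VIM held 35 to 65 and 10 to 20 sites in a table, ZEB1 held 0 to 3, and PAX2, SOX11 and NEFM held 0. Among genes not expected in such cells, ALB, INS, CD3E and MYH7 held 0 sites, PTPRC held 1 in a single table, and HBB, a globin gene, held 6 to 8; what lies behind the HBB sites was not tested.

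Of the 445 distinct member positions, 4 were listed in all 4 tables and 11 in 3. Sequences are shown for the former, since these are the positions with both replicates of both buffers, and for some of the latter. The 4 lay in MRPL18, MRPS25, MRPL53 and MRPL3. Each line gives 25 bases of the transcribed strand, 5′ to 3′, in GRCh38, with the base at the site in capitals. The stretches came from annotated transcripts, and those of MRPL3 and MRPL53 end at the site.
MRPL18, chr6:159790545-159790569, plus strand: cgtgaggaaaaaGaggcgaggcttt
MRPS25, chr3:15065240-15065264, minus strand: tgctagctagtcCtttctcgtcgct
MRPL53, chr2:74472571-74472595, minus strand: cttcgagaaaaacgtggaatcgacG
MRPL3, chr3:131479097-131479121, minus strand: ataaattgcaggactctaaacattT

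Positions of 3 tables that show the same or the opposite pattern are given in the same way, with 12 bases on each side. They were picked after their values were seen.
MRPL17, chr11:6683278-6683302, minus strand: ggaaacatgcggCtgtcggtcgctg
MRPL20, chr1:1402217-1402241, minus strand: aacaggaaagtcCtagcggatctgg
MRPL53, chr2:74472691-74472715, minus strand: cctcacgcaatgCgacacttccgcc
MRPS31, chr13:40771104-40771128, minus strand: tagagtctcgacGttcctacctctt

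MRPL18 encodes a large-subunit protein. Its site at position 159790557 of chromosome 6 lay in an exon outside the coding sequence, 40 bp downstream of an annotated transcript start and 745 bp from the 5′ end of the gene. Polymerase there had pausing times of 0.71 and 0.84 in the sarkosyl replicates, against 14.3 and 41.7 in the sarkosyl-free replicates. Both sarkosyl values were thus below both sarkosyl-free values, and the authors' quartiles of the estimate, 0.47 to 1.09 and 0.53 to 1.37 with sarkosyl against 9.71 to 20.8 and 29.4 to 55.6 without, did not meet. The log2 difference, sarkosyl minus sarkosyl-free, after each table was centred on its median over shared positions, was -4.85 (SE 0.82; limma, Benjamini-Hochberg adjusted p = 0.155 over 2967 positions). The difference therefore did not pass the adjusted threshold of 0.05.

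MRPS25, a small-subunit gene, had its site 8 bp from a transcript start, in an exon outside the coding sequence. Its times were 0.59 and 0.68 in the sarkosyl replicates, against 2.17 and 3.97 in the sarkosyl-free ones. The buffers did not overlap, and the log2 difference was -2.07 (SE 0.74; limma, adjusted p = 0.186).

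The MRPL53 position, 74472571 of chromosome 2, lay in coding sequence 93 bp from a transcript start. The sarkosyl replicates gave 3.26 and 2.03 there, the sarkosyl-free replicates 2.51 and 3.70. The 4 values interleaved, and the log2 difference was -0.11 (limma adjusted p = 0.94). All 26 MRPL53 rows lay inside the span of CCDC142 on the same strand as well, so reads of these genes cannot be told apart.

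The MRPL3 position was of another kind. It lay in an intron, 10926 bp from the nearest start, and coincided with the last base of SNORA58, a small nucleolar RNA gene annotated from 131479097 to 131479233 on the same strand. RNAs of the H/ACA class, to which the SNORA names belong, are cut from introns and end shortly after an ACA box, which is seen in the printed sequence just before the final bases. With sarkosyl the position had times of 6.13 and 3.82, without it 3.82 and 2.81. The values touched, with the same 3.82 in sarkosyl replicate 2 and sarkosyl-free replicate 1, and the log2 difference was 0.70 (limma adjusted p = 0.61). Whether ends of the small RNA were counted as polymerase positions was not tested.

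Over all positions in 4 tables, limma called 0 of 2967 at the adjusted threshold (0%), and 689 had an unadjusted p under 0.05 (23.2%). Of the 4 member positions 0 passed the adjusted threshold and 2, in MRPL18 and MRPS25, had an unadjusted p under 0.05. Buffers did not overlap at 2 of the 4 member positions, beside 56.3% of all 2967, and in both the sarkosyl values were the shorter ones, as at 27.1% of all. Separation at 2 of 4 positions is thus no more than the positions at large showed. The call at MRPL18 depended on the setting. With quantile normalization its adjusted p was 0.042 and 158 positions passed. Without sarkosyl-free replicate 1 the adjusted p was 0.0079 for MRPL18 and 0.015 for MRPS25 and 1597 positions passed, and without sarkosyl-free replicate 2 it was 0.027 for MRPL18 and 660 positions passed. These are fits where the lone table is assumed to vary like the sarkosyl pair.

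Among the 11 positions in 3 tables the direction was mixed. As deposited, every sarkosyl value was shorter than every sarkosyl-free value at 5 of them and longer at 4, beside 42.4% and 38.8% of all 5509 positions in exactly 3 tables, so the members were near the background. At 2 of them, in MRPL1 and MRPL18, the values overlapped. At MRPL17, 6 bp from a start and in coding sequence, the time was 0.66 in sarkosyl replicate 1, against 10.1 and 55.6 in the sarkosyl-free replicates. A further MRPL53 position, 619 bp from a start, read 0.60 in sarkosyl replicate 1 and 7.69 and 12.05 without sarkosyl. At MRPL20, in coding sequence 4078 bp from a start, the times were 0.59 and 0.89 with sarkosyl and 23.8 in sarkosyl-free replicate 2. The sarkosyl values were the shorter at these 3 positions.

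The order was the opposite at other positions. At MRPS31, 57 bp from a start and in coding sequence, sites with sarkosyl read 2.101 and 1.80, against 0.57 in sarkosyl-free replicate 1. At MRPS5, 63 bp from the start of an internal transcript, the times were 2.41 and 1.29 with sarkosyl, against 0.82 in sarkosyl-free replicate 1. A second MRPL20 position, 7 bp from a start, read 0.72 and 0.93 with sarkosyl and 0.34 in sarkosyl-free replicate 2. MRPL20 therefore held a position of each kind, each with a single sarkosyl-free value, from replicate 2. At 7 bp the quartiles of that value, 0.16 to 0.67, overlapped those with sarkosyl, 0.47 to 1.10 and 0.58 to 1.54.

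**Figure D1:**
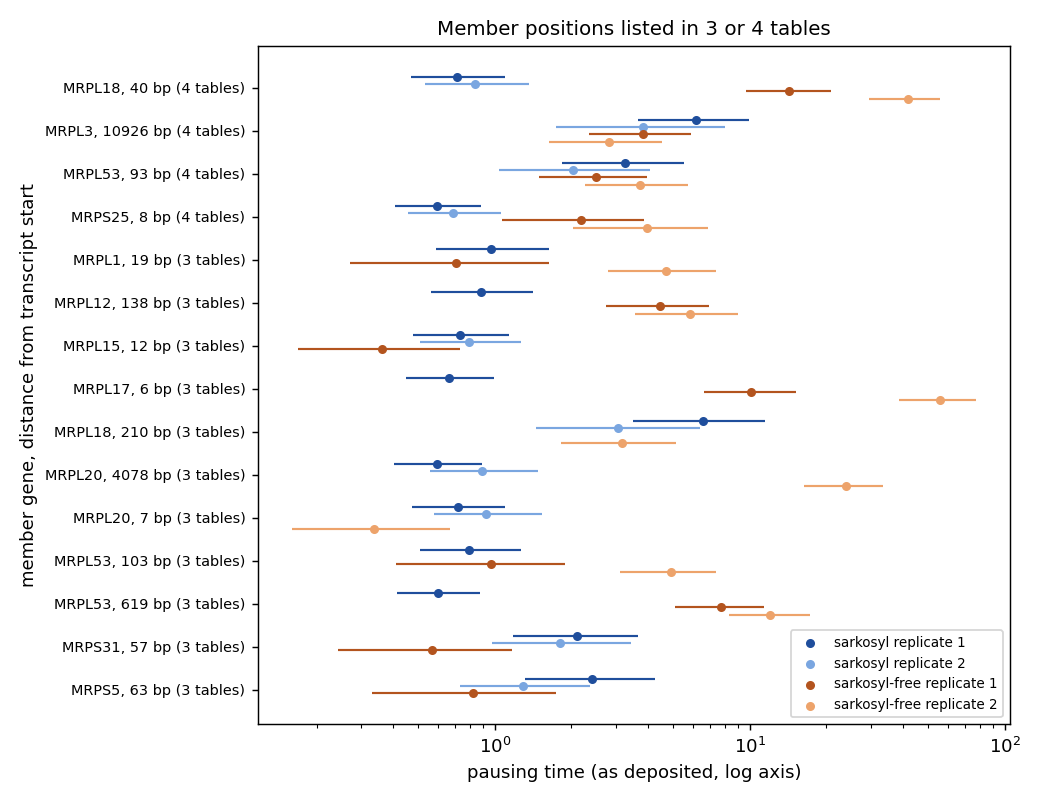
Pausing time (x axis, log scale, as deposited) at the 15 member positions listed in 3 or 4 tables, labelled by gene and distance from the nearest upstream transcript start. Points are the deposited values, coloured by table, and bars span the times from the authors' upper to lower rate quartile. At MRPL18, 40 bp, the sarkosyl points are at 0.71 and 0.84 and the sarkosyl-free points at 14.3 and 41.7.

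Of the 78 genes, 74 held at least 1 site in some table, and MRPL11, MRPL23, MRPL52 and MRPS18B held none. Sites were present in all 4 tables for 32 genes, in 3 for 24, in 2 for 12 and in 1 for 6. The number of member sites was 133 and 123 in the sarkosyl replicates and 194 and 103 in the sarkosyl-free replicates. A site was found in 79.5%, 73.1%, 80.8% and 61.5% of the member genes in the 4 tables in that order, and in 42.6%, 41.4%, 46.7% and 37.8% of the other 18941 coding genes. The nuclear genes of oxidative phosphorylation, 88 by name, were close to the members, with 78.4%, 72.7%, 79.5% and 62.5%. The 81 genes for cytosolic ribosomal proteins were above both, with 96.3% in the first 3 tables and 92.6% in the last. Whether a site is listed depends on read numbers as well as on pausing, and those cannot be told apart here.

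Sites were unevenly spread over the genes. MRPS6, which encodes a small-subunit protein, held 7 and 9 sites with sarkosyl and 10 and 6 without. Of its 32 rows, 29 also lay inside SLC5A3, a solute transporter gene of the same strand. MRPS25 held 7 and 8 sites with sarkosyl and 13 and 3 without. MRPL53 held 6, 7, 8 and 5 in the 4 tables. MRPL12, whose product belongs to the stalk of the large subunit, held 5 and 7 sites with sarkosyl and 5 and 3 without, and all 20 rows also lay inside the annotated gene AC139530.2. These 4 genes gave 109 of the 553 member rows. Sites in another coding gene of the strand numbered 27, 29, 31 and 16 in the 4 tables.

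MRPL3, MRPL42 and MRPL39, all large-subunit genes, showed an excess in 1 table. MRPL3 held 12 sites in sarkosyl-free replicate 1 and 2 in each other table. MRPL42 held 9 there and 1, 2 and 3 elsewhere. MRPL39 held 8 there and 1 or 2 elsewhere. Sarkosyl-free replicate 1 was also the table with the most sites in all, 66089 against 41769 to 48566. MRPL18 was unlike these, with 8 sites in sarkosyl replicate 1 and 3, 3 and 4 in the others. The remaining 17 of the 25 genes shown in the plot of sites per gene held from 7 rows, in MRPS35 and 5 others, to 19, in MRPS30.

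**Figure D2:**
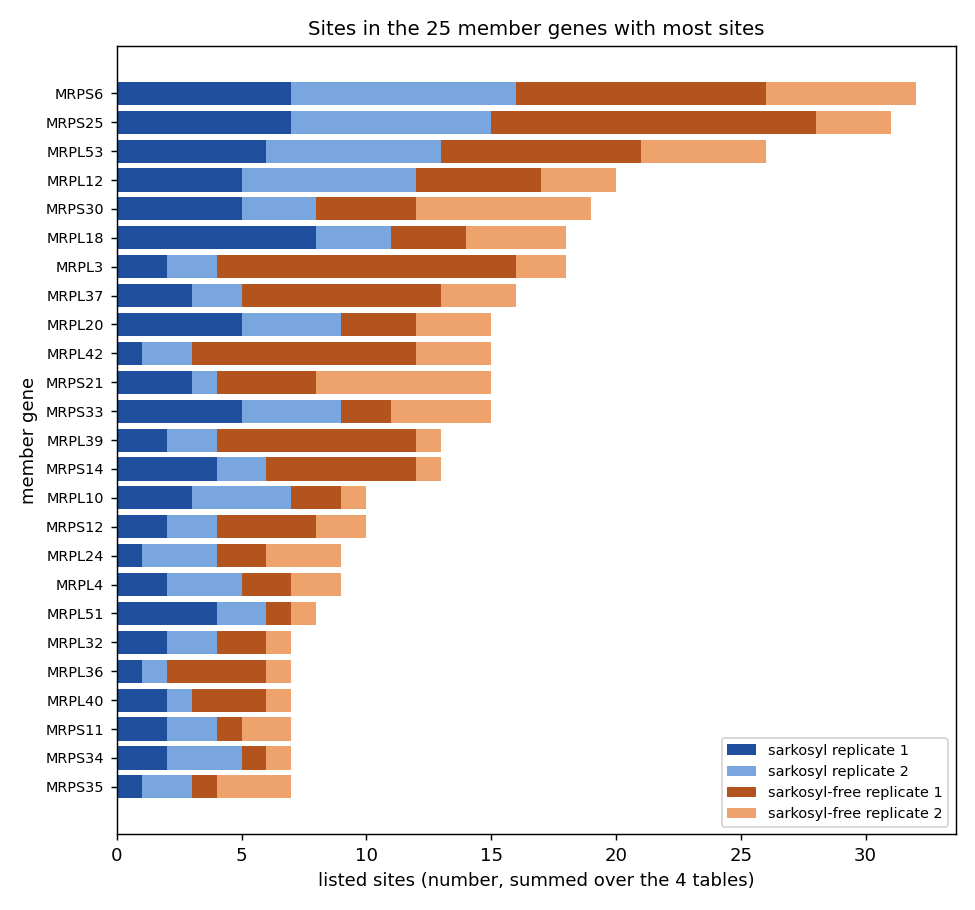
Number of listed sites (x axis) in the 25 member genes with the most sites among those with a site in every table, stacked by table. MRPS6 leads with 32 rows, and MRPL3, MRPL42 and MRPL39 take most of theirs from sarkosyl-free replicate 1.

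Member sites lay near transcript starts more often than sites of other coding genes. A site was called promoter-proximal when it was at most 300 bp downstream of any annotated start of its gene. The proximal share was 68.4% and 50.4% in the sarkosyl replicates and 37.1% and 42.7% in the sarkosyl-free replicates, against 44.4%, 34.9%, 23.7% and 23.6% in other coding genes. Members were higher in 4 of 4 tables. The difference was 19.8 ± 6.0 percentage points with sarkosyl and 16.3 ± 4.0 without (mean ± SD, n = 2 tables each), so that it exceeded the spread between replicates in both buffers. Since the genes were proposed with results of these data known, no p-value is given.

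Members are short genes, with a median span of 11937 bp against 27701 bp, and a short gene has less room for distant sites. Among genes with a span under 20000 bp, 56 members and 7865 others, the difference was 19.7 ± 7.8 points with sarkosyl and 13.1 ± 4.1 without. The counts moved in the same way. Per 100 genes there were 117, 79.5, 92.3 and 56.4 proximal sites in members and 60.0, 47.8, 48.4 and 28.7 in other coding genes. Counted from the 5′ end of the gene alone, in place of any transcript start, the difference shrank to 9.95 and 8.33 points, more than 1.5 times smaller.

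The proximal share of members was also set beside that of 2 gene sets. The members were above the oxidative phosphorylation genes by 13.2 ± 1.3 points with sarkosyl and 8.93 ± 5.4 without, and above the cytosolic ribosomal protein genes by 26.2 ± 9.9 and 14.7 ± 3.1 points. The latter hold many sites along their whole span, 1184 in sarkosyl replicate 1 over 81 genes. Proximal sites per 100 genes, members minus oxidative phosphorylation genes, were -3.63 ± 6.7 with sarkosyl and -3.48 ± 9.2 without. This is within the spread between replicates. For sites beyond 300 bp the values were -51.6 ± 10.9 and -55.0 ± 7.97, so the higher share went with fewer distant sites. Against the cytosolic ribosomal protein genes the proximal counts were -393 ± 6.9 and -272 ± 66. In share, not every related list was lower. The mitochondrial transfer RNA synthetase genes had 75% and 54.8% with sarkosyl, from 20 and 31 sites. The genes of mitochondrial transcription and replication had 53.3% in sarkosyl replicate 2, from 15 sites. Split by symbol, which puts MRPS30 and MRPS18A on the MRPS side, the share was 73.4%, 52.1%, 36.9% and 46.3% in MRPL genes and 61.1%, 48.0%, 37.3% and 38.8% in MRPS genes. The difference, 8.18 ± 5.8 points with sarkosyl and 3.55 ± 5.6 without, was near or within the spread between replicates.

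Within the proximal window the first 60 bp held more member sites than either later stretch in each table. In sarkosyl replicate 1, 37.6% of all member sites were within 60 bp, 15.8% from there to 100 bp and 15.0% from there to 300 bp. In other coding genes these shares were 24.8%, 9.49% and 10.1%. In sarkosyl replicate 2 the member shares were closer to each other, 20.3%, 15.4% and 14.6%. The median distance of proximal member sites was 54, 73.5, 41 and 40.5 bp in the 4 tables. In other coding genes it was 54, 60, 48 and 48.5 bp. Of the 74 genes with sites, 65 had a proximal one. In 11 genes every row was proximal, among them MRPS12, whose product takes part in decoding, with all 10 rows, and MRPL51 with all 8. In 9 genes no row was, MRPL42 with its 15 rows being the largest of them.

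**Figure D3:**
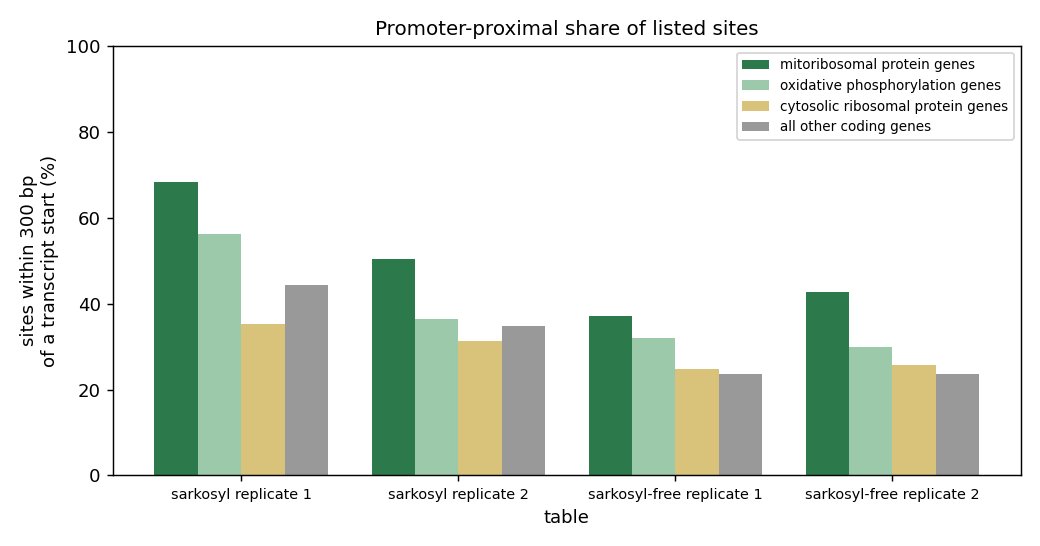
Percentage of listed sites within 300 bp downstream of a transcript start (y axis) in each table for member genes, oxidative phosphorylation genes, cytosolic ribosomal protein genes and all other coding genes. Member genes are the highest bar in every table, at 68.4%, 50.4%, 37.1% and 42.7%.

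The level of the pausing time in member genes was close to that in other coding genes. The median over member sites was 1.58, 1.33, 2.47 and 9.62 in the 4 tables, against 1.53, 1.38, 2.33 and 9.09. On the log2 scale the difference was 0.05 and -0.05 in the sarkosyl replicates and 0.09 and 0.08 in the sarkosyl-free replicates. With sarkosyl the sign differed between replicates. Without sarkosyl the mean difference was 0.08 ± 0.004 (SD, n = 2), a shift that is small beside the spread of single sites, whose quartiles in sarkosyl-free replicate 1 were 0.69 and 5.59. Its sign was not stable: it was -0.20 for sites within 300 bp, -0.095 for the more certain 50% of sites and 0.34 for sites beyond 300 bp.

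Proximal sites of members had shorter times than their sites beyond 300 bp in each table. The medians were 1.44 and 1.77 in sarkosyl replicate 1, 1.28 and 1.47 in replicate 2, 1.95 and 2.97 in sarkosyl-free replicate 1 and 4.81 and 13.2 in replicate 2, the proximal value first. The log2 differences, proximal minus beyond, were -0.30, -0.20, -0.60 and -1.45, and in other coding genes -0.45, -0.31, -0.47 and -0.50. Members were thus on the same side as other genes in 4 of 4 tables, with the widest gap in sarkosyl-free replicate 2. The oxidative phosphorylation genes had -0.49, -0.31, 0.20 and 0.11, and the cytosolic ribosomal protein genes -0.11, -0.10, -0.30 and 0.08. Both sets thus had the other sign in sarkosyl-free replicate 2.

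Split by symbol in the same way, levels were close. The median was 1.43, 1.36, 2.51 and 10.8 in MRPL genes and 1.63, 1.33, 2.24 and 8.47 in MRPS genes. The log2 difference, MRPL minus MRPS, was -0.08 ± 0.15 with sarkosyl, within the spread between replicates, and 0.26 ± 0.14 without, above that spread but with 2 tables.

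The extremes of the members came from different genes in each table. The longest time was 52.6 at MRPL35 in sarkosyl replicate 1, 91 bp from a start, 18.5 at MRPL27 in replicate 2, in an intron, and 32.3 at MRPL12 in sarkosyl-free replicate 1, also in an intron. All 3 genes encode large-subunit proteins. In sarkosyl-free replicate 2 the longest, 90.9, was shared by MRPL20 and MRPL37, since long times take few values when the rate is deposited to 3 decimals. The shortest times were 0.49 at MRPS23, 2 bp from a start, 0.58 at MRPL53, 0.19 at MRPL40, 15 bp from a start, and 0.20 at MRPL4, 8 bp from a start. In 3 of the 4 tables the shortest member time therefore lay within 15 bp of a start.

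**Figure D4:**
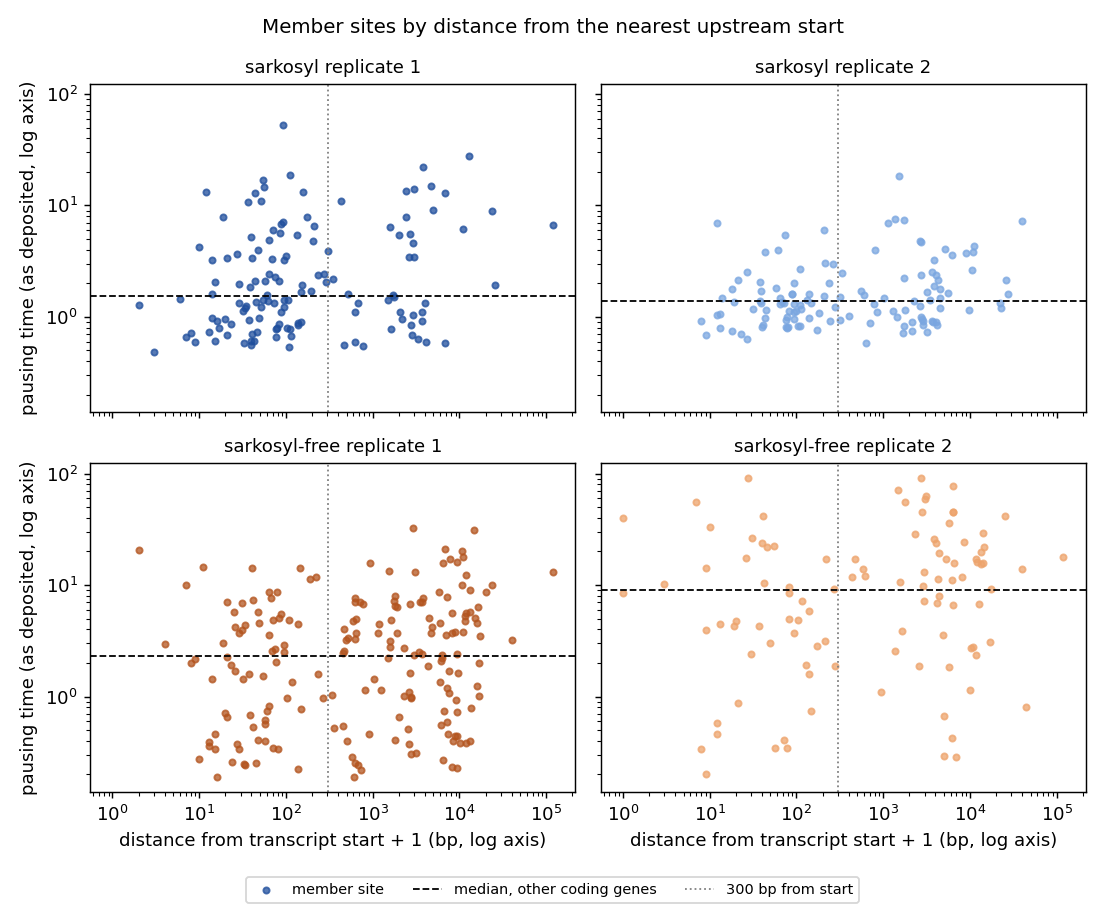
Pausing time of every member site (y axis, log scale, as deposited) against its distance from the nearest upstream transcript start plus 1 bp (x axis, log scale), 1 panel per table. The dashed line is the median of other coding genes (1.53, 1.38, 2.33 and 9.09) and the dotted line marks 300 bp; long and short times occur on both sides of it.

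Gene medians were compared between buffers for genes with at least 3 sites in every table. Of 1527 such genes limma called 0 at the adjusted threshold (0%), and 145 had an unadjusted p under 0.05 (9.5%). Among them were 7 members, MRPL12, MRPL18, MRPL20, MRPL53, MRPS6, MRPS25 and MRPS30, of which 0 passed and 1, MRPL20, had an unadjusted p under 0.05. The median time of MRPL20 was 0.97 and 0.90 with sarkosyl and 2.98 and 23.8 without. Its log2 difference after centring was -1.58 (SE 0.64; limma, adjusted p = 0.50).

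Of the 7 members, 5 had a log2 difference above 0, that is, longer with sarkosyl after centring, beside 54.6% of all 1527 genes, and MRPL20 and MRPS25 were below 0. MRPS6 had medians of 5.62 and 1.35 with sarkosyl and 3.38 and 2.09 without, and a log2 difference of 1.66 ± 1.0 (SE; limma adjusted p = 0.67). The sarkosyl replicates of this gene spanned the sarkosyl-free ones, and the difference was 0.057 without centring, 0.40 without sarkosyl-free replicate 2, 0.72 without sarkosyl replicate 1, 2.59 without sarkosyl replicate 2 and 2.91 without sarkosyl-free replicate 1. MRPS30 had medians of 3.44 and 1.41 with sarkosyl and 0.71 and 8.55 without, and a difference of 1.52 ± 0.81 (SE; limma adjusted p = 0.62). For MRPL18 the medians were 4.00 and 3.04 with sarkosyl and 7.09 and 22.4 without, and the difference was 0.12 ± 0.63 (SE; limma adjusted p = 0.96). After centring, the median of the gene thus differed by less than its error, beside -4.85 for its position at 40 bp. These values were centred over different sets, genes for the former and shared positions for the latter. Without centring they were -1.48 and -4.98, of the same sign. Centring matters for the signs of gene medians, since without it the differences of MRPL12, MRPL18, MRPL53 and MRPS30 turned negative.

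With 1 site per table as the minimum, 4902 genes were tested, with 0 at the adjusted threshold (0%) and 443 at an unadjusted p under 0.05 (9.04%). Of 32 members 5 had an unadjusted p under 0.05 (15.6%) and 0 passed the adjusted threshold. After centring, MRPL3, MRPL51 and MRPS31 were longer with sarkosyl and MRPL17 and MRPL39 shorter. MRPL17 had the largest difference of them (log2 -3.33, SE 0.74; limma, adjusted p = 0.52), with times of 0.66 and 1.003 with sarkosyl and 10.1 and 55.6 without, each from 1 site. The value in sarkosyl replicate 2 came from another position, 1445 bp from a start, and the other 3 from the position at 6 bp. MRPL39 had medians of 0.65 and 1.09 with sarkosyl and 4.32 and 23.8 without. MRPL51 went the other way after centring, with 3.11 and 3.91 with sarkosyl and 0.27 and 5.00 without, values that overlap as deposited.

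Replicate tables shared a minority of the member positions. The sarkosyl replicates had 40 in common, 30.1% of the first and 32.5% of the second, and other coding genes had 34.0% and 33.6%. The sarkosyl-free replicates had 29 in common, 14.9% and 28.2%, and other coding genes 18.0% and 30.2%. When positions within 5 bp were matched, the member shares rose to 36.1% and 39.8% with sarkosyl and 20.6% and 36.9% without. Positions found in both replicates differed by a median of 0.74 in log2 pausing time with sarkosyl and 1.47 without, and by 0.57 and 1.39 in other coding genes. This is the replicate error against which the centred differences above are to be read. Times as deposited also carry the difference in level between tables. Across the 40 and 29 shared positions Spearman's rho between replicates was 0.708 and 0.335, as a description of tables whose positions share libraries.

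The base at the site was C or G nearly throughout. Sequence could be read from annotated exons or RefSeq promoters for 88, 73, 96 and 60 member sites in the 4 tables. C or G stood at 100%, 98.6%, 99.0% and 100% of them. C was the commoner base with sarkosyl, at 78.4% and 76.7%, and still at 65.6% in sarkosyl-free replicate 1, whereas in sarkosyl-free replicate 2 G took 68.3%. Other coding genes had C at 73.6%, 71.9%, 50.6% and 21.7%, so C was more frequent at member sites in 4 of 4 tables. The MRPL3 site, which ends SNORA58, has T in the printed sequence. It was left out of these counts, which needed bases read on both sides of the site.

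In members the median pausing times at C and at G stood in opposite order in the buffers. With sarkosyl the median was 1.33 and 1.19 at C and 3.88 and 1.61 at G. Without it the median was 1.99 and 10.5 at C and 1.39 and 5.00 at G. In other coding genes G had the longer median in every table, 2.99 against 1.83 and 9.62 against 3.66 without sarkosyl. The member medians without sarkosyl therefore ran against those of other genes, and they rest on 63 and 19 sites at C and 32 and 41 at G.

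Sites on the opposite strand, 1 to 1000 bp upstream of the gene start, were more common at members than at other genes. They were found for 29.5%, 24.4%, 29.5% and 20.5% of members in the 4 tables and for 16.6%, 12.4%, 14.3% and 8.87% of other coding genes. Such sites mark transcription that runs away from the promoter, either of the divergent kind or of a neighbouring gene, and these cannot be told apart by position alone. Over the 4 tables together 31 members had one, and 10 had one in all 4 tables, MRPL18, MRPL27, MRPL49, MRPL51, MRPL55, MRPS7, MRPS14, MRPS18C, MRPS31 and MRPS34. MRPL18 held 5 and 5 such sites with sarkosyl and 3 and 2 without. Over all members the median pausing time of such sites, 1.45, 1.43, 1.36 and 5.92, was near that of the members' own sites with sarkosyl and below it without. In other coding genes the upstream median was 1.34, 1.28, 1.84 and 6.80, and without sarkosyl it was also below that of their own sites, 2.33 and 9.09. Members more often held a site on their own strand as well, as given above.

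Promoters of 69 members were matched by symbol in RefSeq (GRCh38.p14), each from 250 bases before to 50 after the start, and searched on both strands. A gene was counted when any of its promoters held a match, and the number of promoters per gene was not matched. The ETS core CCGGAAG was present for 43.5% of these members. It was present for 16.8% of other coding genes and for 12.2% of all 27305 gene symbols with promoters of that length. The YY1 part AAGATGGCG was present in 18.8%, 3.27% and 2.14%, and the NRF1 part GCATGCGC in 8.70%, 4.84% and 3.68%. The SP1 core GGGCGG was present in 60.9%, 65.8% and 48.3%, so it was not more frequent in members than in other coding genes. None of these motifs contains another. A match is a run of letters and not a shown binding site.

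Stretches of 30 bases around matches near the start are printed for genes described above, with the motif in capitals. In MRPL20 the ETS core occurs 2 times in the same orientation, in MRPL17 the NRF1 part occurs on both strands with overlapping letters, and in MRPL18 the ETS core is on the opposite strand.
MRPL20, chr1:1407308-1407337, minus strand: CCGGAAGtatcgcaggggctgacCCGGAAG
MRPL17, chr11:6683402-6683431, minus strand: aggctctgatGCGCATGCGCaaacacgttc
MRPL18, chr6:159790430-159790459, plus strand: gggacttgctaCTTCCGGgtcggtggcgtc
MRPS31, chr13:40771204-40771233, minus strand: aaggcgccaggCCGGAAGcggaagagaggg
MRPS30, chr5:44808950-44808979, plus strand: atcgcgggcaAAGATGGCGgcggccaggtg

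Other genes of mitochondrial translation were read from lists made by function. Of 16 translation factors and helpers 11, 11, 14 and 12 had a site in the 4 tables. Of 29 assembly genes 19, 20, 24 and 19 had one, and of 20 mitochondrial transfer RNA synthetase genes 11, 16, 16 and 8. Of 5 mitochondrial ribosomal protein genes with other names 3, 3, 4 and 2 had one. DAP3, the small-subunit GTP-binding protein, held 5, 4, 6 and 4 sites with medians of 5.59, 2.15, 1.89 and 8.59.

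Of the related genes 10 had at least 3 sites in each table, and in limma 0 of these passed the adjusted threshold or had an unadjusted p under 0.05, beside 9.5% of all 1527 genes. For DAP3 the log2 difference was 1.43 (SE 0.65; limma, adjusted p = 0.56). The proximal share of the lists varied between tables. In the mitochondrial ribosomal protein genes with other names it was 33.3%, 23.1%, 16.7% and 6.67%, from 12, 13, 24 and 15 sites. This was below the other coding genes in 4 of 4 tables. Most of these sites came from PTCD3, with 6, 8, 15 and 11, and DAP3, with 5, 4, 6 and 4. The list therefore cannot be set against the members as a group. For the synthetase genes it was 29.9% and 11.1% in the sarkosyl-free tables, from 67 and 27 sites, and 52.9%, 48.3%, 19.0% and 17.6% for the factors.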

How the data were processed

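Each deposited table gives, per the file headers, the mean, SD, Monte Carlo error, quartiles and median of a fitted score per position, and a pausing time, which equals 1 divided by that deposited median throughout. The median is called the rate. Libraries were processed with cutadapt 1.14, HISAT2 2.1.0, SAMtools and bedtools on hg38, per the submitters' processing notes. The site rule and the model are not given in the sources used here. Table names were matched to sample titles. 1 further sample, labelled as a treatment, was not analysed here.

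Deposited times were analysed as log2 in R 4.3.3 and in Python 3.11.15 with pandas 2.3.3 and numpy 2.4.6, and plotted with matplotlib 3.10.9. A site belonged to a gene when inside its GENCODE 29 span on its strand. Positions were read as 1-based, since base composition at the listed position was then alike on both strands. limma 3.58.1 (lmFit, eBayes) was fitted on all shared positions or genes, with each table centred on its median, and was tested on simulated data. Named genes were the 25 with most sites among those in every table, positions in all 4 tables, extremes not tied and genes without sites; positions in 3 tables and members with an unadjusted p under 0.05 were named after their values were seen. Members and lists were chosen with earlier results of these data known. Alternatives covered centring, filters, windows, a replicate block and leaving out each table.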

Additional observations from a re-analysis of the deposited data

Results flagged for a closer look

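Sites on the strand opposite to the gene, inside the spans of the mitochondrial ribosomal protein genes, entered no comparison above. The sarkosyl tables listed 21 and 18 of them, in 12 and 16 genes, and there were 31 and 19 of them without sarkosyl, in 19 and 14 genes. Their median pausing times were 0.89 and 1.204 with the detergent and 3.32 and 9.80 without it. As shares of the members these genes were 15.4%, 20.5%, 24.4% and 17.9%, beside 17.4%, 15.2%, 19.0% and 13.4% of other coding genes, whose medians were 1.48, 1.36, 2.23 and 7.41. They were noticed because they are a signal in rows that the membership rule leaves out, and their source was not tested.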

How the results depend on the processing

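Of 62 alternatives to the main comparisons, 44 stayed within the limits set for a like value or count. For single genes and positions 86 of 108 kept sign and call, though not always size: without centring MRPS6 was 0.057 and MRPL20 -3.18. For the level of members against other coding genes (log2), gene medians gave 0.13 with sarkosyl and 0.19 without, sites within 300 bp 0.12 and -0.20, genes under 20000 bp -0.11 and 0.17. Without sarkosyl, sites beyond 300 bp gave 0.34, sites in a single coding gene 0.17, the more certain 50% of sites -0.10, leaving out the 4 members with most rows 0.20 and leaving out MRPS6 0.12. Proximal share differences fell to 9.95 and 8.33 points with the gene's 5′ end only. The alternatives on span, the 4 members and MRPS6 were chosen after seeing the data. Quantile normalization called 158 of 2967 positions. Leaving out each table in turn called 0 to 1597 positions and 0 to 31 genes, so single tables decide the number.

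The replicate block in limma called 161 positions, with the MRPL18 position at adjusted p = 0.0028, and 0 genes. All member positions had the same SE in this fit, 1.13, against 0.82 for MRPL18 in the main fit. The adjusted p thus rests on a variance shared between positions, and not on closer replicates at MRPL18. Over the 2967 positions the difference between replicates in one buffer had a correlation of 0.013 with that in the other. Whether tables of the same replicate number share a culture is not stated. The correlation cannot decide it, since a shift of level common to all positions would not enter it.

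Signs turned for single genes. Without centring MRPL12 was -1.08, MRPL18 -1.48, MRPL53 -1.55 and MRPS30 -0.083. With quantile normalization MRPL12 was -0.018, MRPL53 -0.014 and the MRPL53 position 0.60. With the mean per gene MRPL12 was -0.026, MRPL18 -0.60 and MRPL53 -0.068, and with 1 site as minimum MRPL53 was -0.022. Leaving out tables gave -0.43 to 0.68 for MRPL18, -0.19 to 0.29 for MRPL53, -1.08 to 0.18 for MRPS25 and -0.48 to 0.27 for the MRPL53 position. Read numbers per site are not known here, and the cause of these changes was not tested.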
